A study of Mus musculus with 25 samples.

Results

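The 44 genes described here carry out DNA replication and mitosis, and were chosen by their known function, with earlier results of these data known. They form 2 groups, 21 genes that are known to peak in S phase and 23 that are known to peak in G2 and mitosis. All 44 were found by their gene identifiers among the 48440 genes of the count table, and all 44 passed the filter on low counts in each comparison.

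The study measured the transcriptome of mouse E14 embryonic stem (ES) cells, a feeder-free line grown in serum, by mcSCRB-seq, a bulk 3′ RNA-seq method that counts unique molecular identifiers (UMIs). Unedited (WT) E14 cells were treated for 48 h with CHIR99021 (named Chiron in the labels), an inhibitor of the kinase GSK3, at 0, 2.5, 5, 7.5 or 10 µM, with 2 libraries per dose. The other 15 libraries were 1 each from clones that carried 1 of 11 missense mutations in *Ctnnb1*, the gene of β-catenin, on 1 allele, grown without the inhibitor. Each substitution has a mutational effect score (MES), a value for how strongly it raised a fluorescent β-catenin/TCF reporter in other cells. The study's 3 categories of mutations, which were drawn from clustering these same libraries, were low (S45C, T41N and T41S, 1 clone each), medium (S45P with 1 clone and S45F with 2) and high (S37A, S37C and S37Y with 1 clone each, and S37F, T41A and T41I with 2 each). A clone is a line grown from a single cell, so that the effect of a mutation cannot be told apart from other features of its clone, except in part for the 4 mutations with a second clone. The labels do not say that libraries of 1 dose came from separate cultures, so p-values measure the spread between libraries, which may be technical.

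Libraries held 306157 to 2083398 counts, and levels are given in CPM, counts scaled to a common library total. Where a library holds no count of a gene, up to 3 counts remain possible, or 1.44 CPM in the deepest and 9.80 CPM in the shallowest library. Intervals and such limits cover counting error only. All 10 ES cell markers (such as *Pou5f1*, *Sox2* and *Nanog*) were detected in each of the 25 libraries, and 2 of 12 markers of differentiated cells were. *Pou5f1* was low, at 9.05 to 28.8 CPM, against 310 to 826 CPM for *Sox2*. In 4 of the inhibitor libraries (the second at 0 µM and the first at 2.5, 5 and 10 µM) mitochondrial transcripts took 0.485 to 0.562% of counts, against 0.986 to 1.46% in the other 6 and 1.53 to 2.52% in the clones. The clone T41S H8 had the lowest summed level of the ES cell markers (2294 CPM) and the highest of the markers of differentiated cells (303 CPM). The clone S37Y A5 followed it in the second measure (282 CPM), with *Gata6* at 85.4 CPM and *Sox17* at 60.2 CPM. In bulk libraries a smaller share of cells in S phase or mitosis and less RNA of these genes per cell cannot be told apart.

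As background, cells copy their DNA in S phase and divide it in mitosis, and the genes of each step are transcribed in waves. Before S phase the MCM complex, the helicase that unwinds DNA, is loaded at origins, and genes of this step are known targets of E2F factors. Genes of G2 and mitosis are known to be controlled through the cell cycle genes homology region (CHR) and CCAAT boxes, to which the DREAM complex or MYB-MuvB and the factor NF-Y bind. Mouse ES cells in serum divide quickly, with a short G1 phase and many cells in S phase.

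Promoters of the members hold the motifs that mark both waves. RefSeq promoter windows (GRCm38.p6, 250 bases before to 50 bases after the start) were given for 37 of the 44 members. On either strand, the CHR letters TTTGAA were in 14 of 19 windows of G2/M members (73.7%), in 3 of 18 of S phase members (16.7%) and in 18.1% of all 27025 windows. The variant TTTAAA was in 7 of 19 (36.8%), 2 of 18 (11.1%) and 13.2%. The letters CCAAT were in 17 of 19 (89.5%), 13 of 18 (72.2%) and 37.9%. Any of the 4 E2F forms TTTCCCGC, TTTCGCGC, TTTGCCGC and TTTGGCGC was in 7 of 18 windows of S phase members (38.9%), in 1 of 19 of G2/M members (5.26%, *Cdk1*) and in 2.32% of all. All 14 G2/M windows with TTTGAA also held CCAAT. The S phase windows with an E2F form were those of *Mcm3*, *Mcm5*, *Mcm6*, *Mcm7*, *Cdc6*, *Cdt1* and *Pola1*. The bars of motif matches show the opposite order of the 2 groups for CHR and E2F. A match is a description of letters and not a site of binding, and no binding was measured here.

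**Figure D1:**
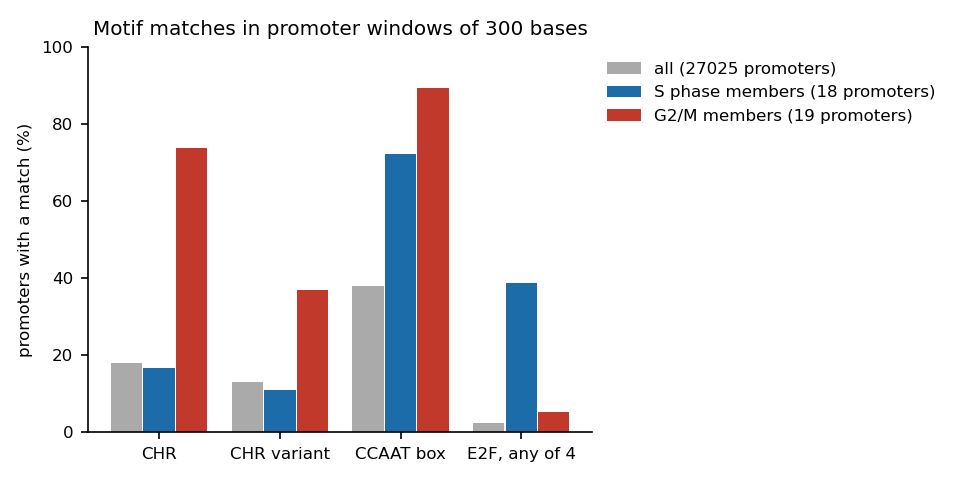
Share of promoter windows of 300 bases with at least 1 match (y axis, %) for each motif (x axis), over all 27025 windows (grey), the 18 windows of S phase members (blue) and the 19 of G2/M members (red). CHR matches stand at 73.7% of G2/M windows and 16.7% of S phase windows, and E2F matches at 5.26% and 38.9%.

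The promoters of the member of each group with the smallest p in the dose trend are shown, with those of *Kif11* and *Mcm5*, which were added after values were seen because their windows hold motifs. All lie on the plus strand of GRCm38.p6 and are printed 5′ to 3′, with motif letters in capitals (in *Kif11* the reverse complements of CCAAT and TTTGAA, in *Mcm5* TTTAAA, overlapping forms of E2F on both strands and CCAAT on the printed strand 3 times). The windows are chr2:119618048-119618347 for *Nusap1*, chr19:37376132-37376431 for *Kif11*, chr5:114130185-114130484 for *Ung* and chr8:75109259-75109558 for *Mcm5*. The windows of *Nusap1* and *Ung* hold none of these letters, and in *Kif11* the box starts 45 bases and the CHR 19 bases before the start of transcription.
Nusap1: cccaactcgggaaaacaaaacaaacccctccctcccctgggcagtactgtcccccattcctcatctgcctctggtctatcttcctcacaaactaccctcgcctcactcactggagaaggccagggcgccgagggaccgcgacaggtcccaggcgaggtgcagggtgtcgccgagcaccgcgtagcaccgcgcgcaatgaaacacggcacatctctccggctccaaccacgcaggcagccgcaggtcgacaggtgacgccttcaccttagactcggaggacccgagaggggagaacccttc
Kif11: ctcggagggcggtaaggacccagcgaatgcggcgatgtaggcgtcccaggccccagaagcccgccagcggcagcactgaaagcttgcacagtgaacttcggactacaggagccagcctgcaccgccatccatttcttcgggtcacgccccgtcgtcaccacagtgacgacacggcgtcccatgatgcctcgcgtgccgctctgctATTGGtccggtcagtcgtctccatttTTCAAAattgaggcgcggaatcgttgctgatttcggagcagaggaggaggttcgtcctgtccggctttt
Ung: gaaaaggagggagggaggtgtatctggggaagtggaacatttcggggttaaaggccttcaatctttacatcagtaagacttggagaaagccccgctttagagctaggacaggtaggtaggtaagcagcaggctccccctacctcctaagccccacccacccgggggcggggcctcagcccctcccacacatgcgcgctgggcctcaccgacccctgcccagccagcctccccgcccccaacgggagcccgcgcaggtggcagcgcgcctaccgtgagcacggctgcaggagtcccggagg
Mcm5: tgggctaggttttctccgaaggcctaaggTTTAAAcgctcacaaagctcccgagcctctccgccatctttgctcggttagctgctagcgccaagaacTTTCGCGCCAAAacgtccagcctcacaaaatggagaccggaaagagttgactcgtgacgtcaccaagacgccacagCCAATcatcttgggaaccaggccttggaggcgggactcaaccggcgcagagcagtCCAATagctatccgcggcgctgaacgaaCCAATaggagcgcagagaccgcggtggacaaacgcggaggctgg

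The first comparison asks how the members responded to CHIR99021, which stabilises β-catenin without a mutation. The G2/M members were lower with inhibitor as a group. They took 0.496% (Wilson 95% interval 0.486 to 0.506%) and 0.494% (0.480 to 0.508%) of counts in the untreated libraries, 0.375 and 0.394% at 2.5 µM, 0.359 and 0.383% at 5 µM, 0.357 and 0.380% at 7.5 µM, and 0.357 and 0.359% at 10 µM. The S phase members took 0.415% (0.406 to 0.425%) and 0.423% (0.410 to 0.436%) of counts without inhibitor, and 0.340 to 0.387% in the 8 treated libraries. Both sums were higher in each untreated library than in any treated one. For the G2/M sum most of the difference was already there at 2.5 µM, where the S phase sum was 0.369 and 0.387%. The ratio of the G2/M sum to the S phase sum was 1.17 and 1.19 without inhibitor and 0.980 to 1.08 with it.

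**Figure D2:**
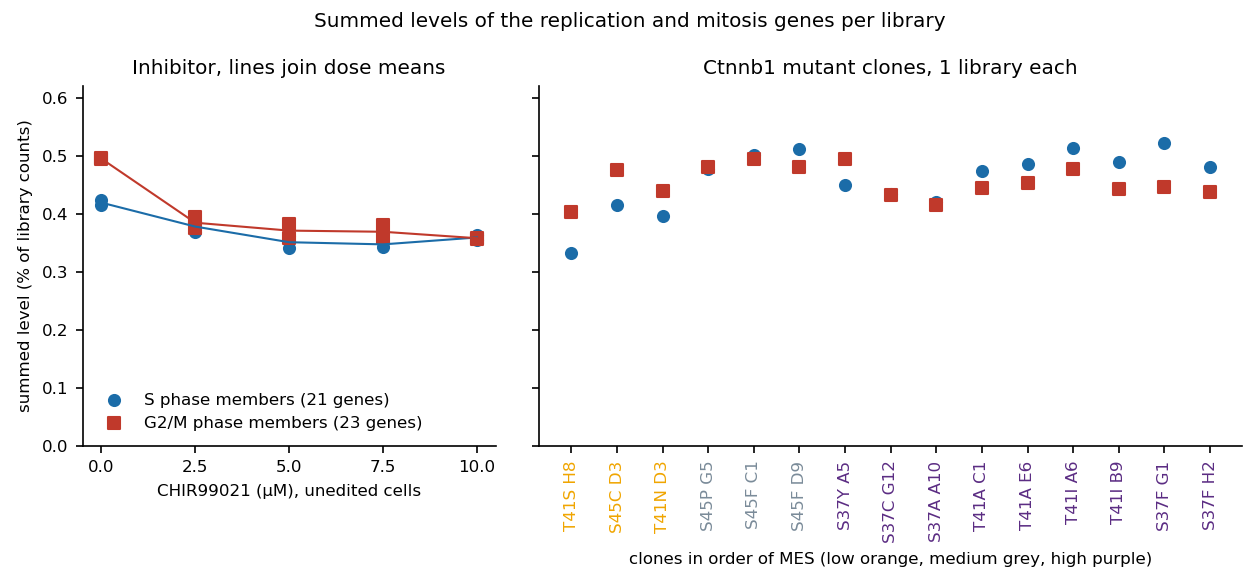
Summed level of the 21 S phase members (blue circles) and the 23 G2/M members (red squares) as a percentage of the library's counts (y axis), by CHIR99021 dose in µM (left, 2 libraries per dose, lines join means) and by clone in order of MES (right, 1 library each, names in orange for low, grey for medium and purple for high). The G2/M sum is 0.494 and 0.496% without inhibitor and at most 0.394% with it, and the S phase sum is 0.333% in T41S H8 and 0.420 to 0.521% among the high clones.

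In the dose trend over the 10 libraries, fitted as a log2 change per 10 µM, 12 of 23 G2/M members fell and 0 rose, and all 23 had a change below 0, with a median of -0.43. Of all 10033 genes tested, 6.63% fell and the median change was 0.008. Of the 21 S phase members 3 fell and 0 rose, 17 changes were below 0 and the median was -0.29. At 7.5 and 10 µM against 0 µM, where 8.45% of the 10674 genes tested fell, 13 G2/M members (the same 12 and *Cenpa*, the histone H3 variant of centromeres) and the same 3 S phase members fell, with median log2 changes of -0.43 and -0.28. Both comparisons use the same untreated libraries. Without overlap, both untreated libraries were above all 8 treated ones for 16 of 23 G2/M members and 7 of 21 S phase members, as they were for 10.3% of all genes tested. Without either untreated library the dose trend called 6 G2/M members and 1 S phase member, and without the second library at 10 µM 1 S phase member. At the top doses the S phase count was 1 without each of these 3 libraries in turn and 6 without the first at 10 µM, and DESeq2 called 7 G2/M members and 1 S phase member there.

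*Nusap1* (ENSMUSG00000027306, chr2:119618298-119651244, plus strand), which encodes a microtubule-binding protein of the mitotic spindle, had the smallest p among the members. It was at 159.8 and 175 CPM without inhibitor, 84.8 and 117 at 2.5 µM, 93.8 and 84.0 at 5 µM, 77.6 and 91.6 at 7.5 µM and 78.4 and 87.4 at 10 µM. No treated library reached the lower untreated one, and the treated mean was 46.7% lower. The dose trend was -1.02 ± 0.18 (adjusted p = 1.3e-04) and the change at the top doses -0.96 ± 0.13 (adjusted p = 6.3e-07), by edgeR's quasi-likelihood test as for all changes below. *Nusap1* overlaps *Oip5* on the opposite strand, and whether strand was used in counting is not given in the sources used here.

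*Kif11* (chr19:37376403-37421859, plus strand), the kinesin that pushes spindle poles apart, was at 78.3 and 76.6 CPM without inhibitor, 60.4 and 63.3 at 2.5 µM, 47.7 and 65.8 at 5 µM, 53.0 and 47.8 at 7.5 µM and 39.2 and 45.9 at 10 µM. Its levels were lower at each dose than at the one before it by their means, and the trend was -0.78 ± 0.17 (adjusted p = 0.0024). *Bub1* (chr2:127801122-127831865, minus strand), a kinase of the spindle checkpoint, was at 165 and 163 CPM without inhibitor, 129 and 145 at 2.5 µM, 112 and 115 at 5 µM, 107 and 129 at 7.5 µM and 62.1 and 114 at 10 µM, with a trend of -0.67 ± 0.15 (adjusted p = 0.0026). The 2 libraries at 10 µM differed most from each other, and the lower one held the fewest counts of all libraries. *Top2a* (chr11:98992943-99024189, minus strand), the topoisomerase that untangles sister chromatids, was at 771 and 832 CPM without inhibitor, 591 and 617 at 2.5 µM, 548 and 617 at 5 µM, 541 and 616 at 7.5 µM and 523 and 539 at 10 µM. It lay in a narrow band at and above 2.5 µM, well under the untreated pair, with a trend of -0.51 ± 0.12 (adjusted p = 0.0037).

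*Cdc20* and *Ube2c* act in the anaphase-promoting complex, the ubiquitin ligase that starts chromosome separation. *Cdc20* was at 249 and 260.5 CPM without inhibitor, 217 and 184 at 2.5 µM, 196 and 169 at 5 µM, 155 and 175 at 7.5 µM and 169.8 and 174 at 10 µM, a trend of -0.60 ± 0.14 (adjusted p = 0.0031). *Ube2c* was at 353 and 367 CPM without inhibitor, 236 and 240.1 at 2.5 µM, 247 and 242 at 5 µM, 231 and 246 at 7.5 µM and 284 and 244 at 10 µM, a trend of -0.45 ± 0.14 (adjusted p = 0.038). The 8 treated libraries of *Ube2c* lay between 231 and 284 CPM with no order by dose. The cyclins *Ccnb1*, *Ccnb2* and *Ccna2*, which activate *Cdk1* for entry into mitosis, fell by 0.43, 0.53 and 0.45 (log2 per 10 µM), while *Cdk1* itself was at -0.29 ± 0.13 (adjusted p = 0.16) and did not pass the test. Their adjusted p were 0.032, 0.0067 and 0.023 by edgeR. *Cdc20* overlaps *Elovl1* and *Ccna2* overlaps *Exosc9* on the opposite strand, as *Kif20a*, *Cdc45* and *Fen1* below overlap *Cdc23*, *Ufd1* and *Tmem258*.

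The others that fell were *Bub1b*, the checkpoint partner of *Bub1* (trend -0.50), *Aurkb*, the kinase of the chromosomal passenger complex (-0.58), and *Cenpf*, a protein of kinetochores (-0.53). The remaining 11 G2/M members had trends of -0.41 to -0.02 that did not pass the test. Among them were *Plk1* and *Aurka*, kinases of spindle assembly (-0.25 and -0.35), *Tpx2* and *Hmmr*, spindle proteins (-0.29 and -0.35), *Birc5*, a subunit of the passenger complex (-0.26), and *Kif20a* and *Kif23*, kinesins of cell division (-0.19 and -0.13). *Cenpe*, the kinetochore motor, had -0.02 ± 0.16 (adjusted p = 0.97). *Mki67* (chr7:135689784-135716361, minus strand), which encodes the proliferation marker Ki-67, was at 71.7 and 69.1 CPM without inhibitor, 66.1 and 60.2 at 2.5 µM, 54.3 and 74.9 at 5 µM, 54.4 and 68.0 at 7.5 µM and 45.7 and 47.4 at 10 µM. Its trend of -0.41 ± 0.18 (adjusted p = 0.15) did not pass, and 1 library at 5 µM lay above both untreated ones.

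**Figure D3:**
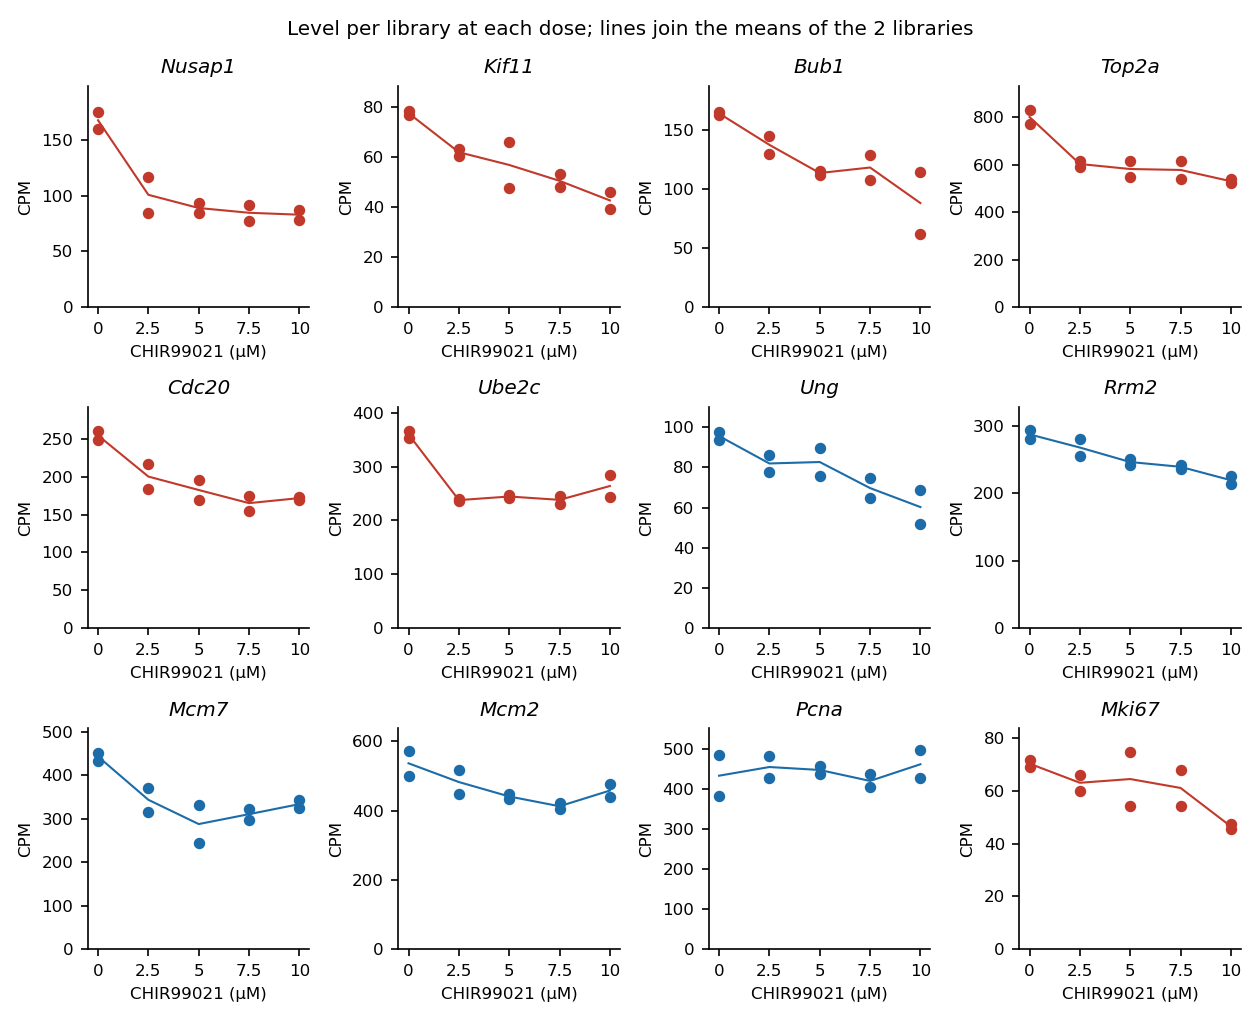
Level in CPM (y axes, from 0) against CHIR99021 dose in µM (x axes) for 6 G2/M members in red and *Mki67* in red at the end, and 5 S phase members in blue. Points are libraries and lines join the means of the 2 libraries per dose. *Nusap1* and *Ube2c* step down between 0 and 2.5 µM, *Kif11* and *Ung* are lowest at 10 µM, and *Pcna* stays between 383 and 496 CPM.

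Among the S phase members *Ung* (chr5:114130386-114139323, plus strand), the glycosylase that removes uracil from DNA, had the smallest p. It was at 93.5 and 97.8 CPM without inhibitor, 86.2 and 77.8 at 2.5 µM, 75.7 and 89.8 at 5 µM, 64.6 and 74.9 at 7.5 µM and 68.6 and 52.0 at 10 µM, with a trend of -0.65 ± 0.17 (adjusted p = 0.0091). *Rrm2* (chr12:24708241-24714146, plus strand), the regulated subunit of ribonucleotide reductase, which makes deoxynucleotides, was at 281 and 295 CPM without inhibitor, 256 and 281 at 2.5 µM, 242 and 252 at 5 µM, 236 and 243 at 7.5 µM and 225 and 214 at 10 µM, with -0.38 ± 0.12 (adjusted p = 0.025). The pairs of libraries of *Rrm2* lay close together and 1 library at 2.5 µM was just under the lower untreated one. *Mcm7* (chr5:138164583-138172422, minus strand), a helicase subunit, was at 434 and 452 CPM without inhibitor, 316 and 370.5 at 2.5 µM, 243 and 332 at 5 µM, 297 and 323 at 7.5 µM and 323 and 343 at 10 µM, with -0.41 ± 0.14 (adjusted p = 0.048). It overlaps *Cops6* and *Ap4m1* on the opposite strand.

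The other helicase subunits had smaller changes that did not pass the test, from -0.30 for *Mcm6* to -0.20 for *Mcm4*. *Mcm2* (chr6:88883474-88898780, minus strand) was at 572 and 501 CPM without inhibitor, 448 and 516 at 2.5 µM, 434 and 447 at 5 µM, 421 and 404 at 7.5 µM and 438 and 477 at 10 µM, a trend of -0.28 ± 0.12 (adjusted p = 0.13). *Mcm5* was at 355 and 360.4 CPM without inhibitor, 305 and 289.7 at 2.5 µM, 250.04 and 286 at 5 µM, 289 and 297 at 7.5 µM and 336 and 281 at 10 µM, a trend of -0.23 ± 0.13 (adjusted p = 0.27), and all 8 treated libraries of it were below both untreated ones. *Pcna* (chr2:132249162-132253314, minus strand), the sliding clamp of DNA polymerases, was at 383 and 484 CPM without inhibitor, 483 and 427 at 2.5 µM, 457 and 438 at 5 µM, 404 and 436 at 7.5 µM and 496 and 427 at 10 µM. The groups overlapped, and the trend of *Pcna* was 0.02 ± 0.13 (adjusted p = 0.95). *Gins2*, another part of the active helicase, had 0.01 ± 0.16 (adjusted p = 0.99), *Rrm1*, the large subunit of ribonucleotide reductase, 0.02 ± 0.14 (adjusted p = 0.96), and *Slbp*, which binds histone mRNAs, 0.20 ± 0.24 (adjusted p = 0.66).

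*Cdc6*, which loads the helicase at origins, had a larger but uncertain trend of -0.69 ± 0.25 (adjusted p = 0.074), at 25.5 CPM on average in treated libraries. Its partner *Cdt1* had -0.28 ± 0.13 (adjusted p = 0.16). The other 7 S phase members (*Mcm10*, *Cdc45*, *Tyms*, *Rfc2*, *Fen1*, *Pola1* and *Prim1*) lay between -0.42 and -0.11, and none passed. Over the members, the treated mean was lower than the untreated mean by a median of 22.9% in G2/M and 15.4% in S phase. *Pcna* and *Slbp* were the 2 of 44 whose treated mean was the higher one.

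The lowest dose was also compared with untreated cells by itself. At 2.5 µM against 0 µM, a comparison added after levels were seen, all 23 G2/M members were lower, with a median log2 change of -0.30, and 3 passed the test (1.04% of all genes fell there). These were *Ube2c* (-0.57 ± 0.13, adjusted p = 0.0065), *Nusap1* (-0.66 ± 0.16, adjusted p = 0.011) and *Ccnb1* (-0.47 ± 0.13, adjusted p = 0.036). Of the S phase members 0 passed, with a median of -0.11 and 1 at an unadjusted p under 0.05, by edgeR. DESeq2 called 1 G2/M member and 0 S phase members there, and edgeR with a block for the mitochondrial share 6 and 1, with 545 genes called in all against 248 without the block. The count of G2/M members was 0 without either untreated library and 1 without either library at 2.5 µM by edgeR. With both untreated libraries left out, the dose trend of edgeR called 0 of the 44 members and 121 genes in all, with 5 S phase and 3 G2/M members at an unadjusted p under 0.05.

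Other genes of the same processes, listed apart from the members, had lower values with inhibitor too. Of 41 other replication genes 10 fell and 0 rose in the dose trend, with a median of -0.23, and of 40 other mitosis genes 8 fell and 0 rose, with a median of -0.31. Those with the smallest p were *Pold1* and *Pold2*, subunits of DNA polymerase δ (-0.81 ± 0.14, adjusted p = 1.4e-04, and -0.77 ± 0.14, adjusted p = 1.8e-04), and *Hells*, a chromatin remodeller (-0.66 ± 0.12, adjusted p = 4.2e-04). In mitosis they were *Kif2c*, a kinesin that takes microtubules apart (-0.76 ± 0.15, adjusted p = 7.1e-04), *Spc24*, a subunit of the kinetochore complex NDC80 (-0.74 ± 0.15, adjusted p = 0.0011), and *Nek2*, a centrosome kinase (-1.01 ± 0.22, adjusted p = 0.0023). *Pold1* was at 352 and 356 CPM without inhibitor, 239.99 and 259.95 at 2.5 µM, 197 and 208 at 5 µM, 199 and 201 at 7.5 µM and 179.6 and 223 at 10 µM, so that it too stepped down at the lowest dose. Of 21 tested regulators of the cell cycle (E2F factors, the RB family, DREAM and MuvB subunits and others) 0 passed in the dose trend by edgeR, and 7 had an unadjusted p under 0.05.

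Beside these results, 7 of the 10 ES cell markers fell in the dose trend (against 6.63% of all genes tested) and 1 rose (against 5.89%). Their summed level was 5361 and 5435 CPM without inhibitor and 3704 to 4850 CPM with it. The summed level of the 12 markers of differentiated cells was 108 and 117 CPM without and 75.3 to 134 CPM with inhibitor. Of the 5 of them that passed the filter, 1 rose (*Mixl1*) and 1 fell (*Tubb3*). The part of such differences in the levels of the members was not tested. With a block for the mitochondrial share the dose trend called 5 S phase members lower. The top doses called 8 S phase and 19 G2/M members lower with this block, and within the 6 libraries of higher share 7 and 15. At the lowest dose the same block raised the calls among all genes from 248 to 545. For the dose trend and the top doses the calls among all genes in these fits are not given here. The member counts there thus cannot be set against those of all genes. Whether the added calls are particular to the members was not tested, and they are not read as such.

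**Figure D4:**
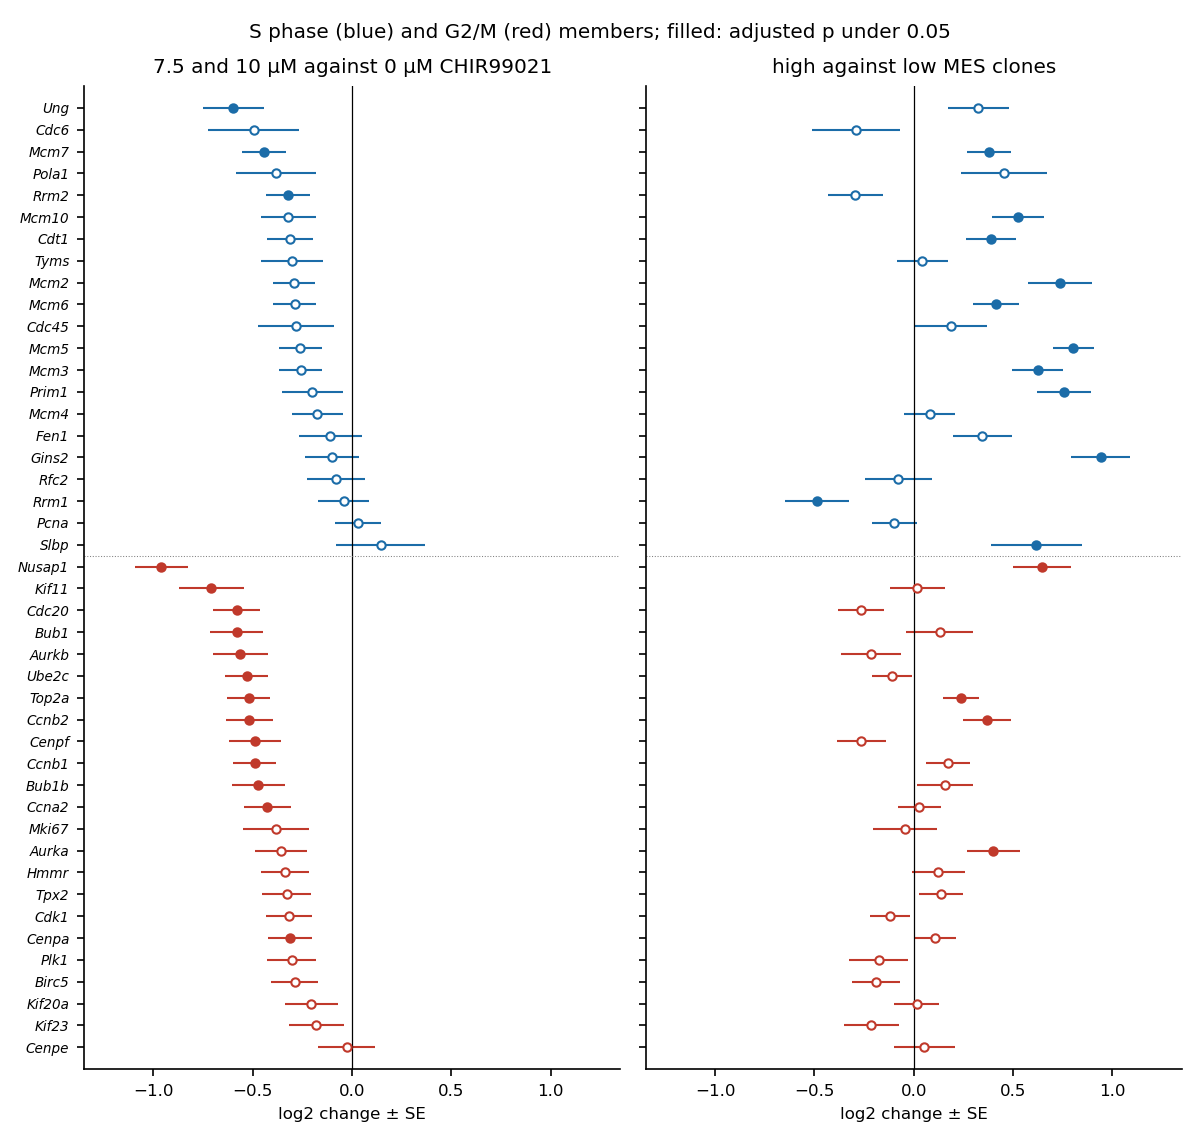
log2 change ± standard error of each member (rows), S phase in blue and G2/M in red, for 7.5 and 10 µM against 0 µM CHIR99021 (left) and for high against low MES clones (right). Filled points have an adjusted p under 0.05 by edgeR. On the left 13 G2/M and 3 S phase members are filled, all below 0. On the right 10 S phase and 4 G2/M members are filled above 0 and *Rrm1* below 0.

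The second comparison asks how the members vary with the strength of the β-catenin mutation. The S phase members took 0.333% (0.324 to 0.341%), 0.397% and 0.414% of counts in the low clones T41S, T41N and S45C, 0.477 to 0.512% in the 3 medium clones and 0.420 to 0.521% (median 0.481%) in the 9 high ones. The G2/M members took 0.403 to 0.475%, 0.480 to 0.494% and 0.416 to 0.494%. All 9 high clones were above all 3 low ones in the S phase sum, while 2 of 9 were in the G2/M sum. The sum weighs genes by their level, and abundant helicase genes differed much in it. Means were 702 CPM in high and 426 CPM in low clones for *Mcm2*, 518 and 299 for *Mcm5* and 423 and 278 for *Mcm3*. *Pcna* went the other way, at 556 and 604 CPM. Of the 21 S phase members 16 had a change above 0 and 5 below 0 in high against low clones. The lowest high clone, S37A at 0.420% (Wilson 95% interval 0.409 to 0.431%), overlapped in counting error with S45C (0.399 to 0.430%) and T41N (0.380 to 0.415%). The ratio of the G2/M to the S phase sum was 1.105 to 1.21 in low and 0.857 to 1.101 in high clones.

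In the trend over MES across the 15 clones, as a log2 change per 10000 units, 8 of 21 S phase members rose and 0 fell, with a median of 0.15. Of all 10145 genes tested 9.91% rose. Of the 23 G2/M members 3 rose (13.0%) and 0 fell, with a median of -0.005. High against low clones gave 10 S phase members higher and 1 lower, with a median log2 change of 0.38, where 13.1% of the 10452 genes tested were higher and 16.6% lower. It gave 4 G2/M members higher (17.4%) and 0 lower, with a median of 0.03. In both comparisons the share of G2/M members that were higher was near that of all genes. It is not read as particular to them. All 9 high clones lay above all 3 low clones for 6 S phase and 3 G2/M members, as for 9.33% of all genes tested. Both comparisons rest on the same clones, and the categories on the same libraries.

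The S phase members that rose over MES were *Gins2*, *Mcm2*, *Mcm3*, *Mcm5*, *Mcm6*, *Mcm7*, *Mcm10* and *Prim1*. *Gins2* (chr8:120578633-120589304, minus strand), a subunit of the GINS complex of the replicative helicase, was at 72.3 CPM in T41S, 68.6 in T41N and 86.0 in S45C, 98.5 in S45P and 119 and 123 in the S45F clones, and 109.5, 144 and 169 as the lowest, median and highest of the high clones. High clones had 145 ± 19.1 CPM (SD, n = 9) and low clones 75.6 ± 9.16 CPM (SD, n = 3). The MES trend was 0.42 ± 0.07 (adjusted p = 9.5e-05) and high against low 0.94 ± 0.15 (adjusted p = 5.0e-05), by edgeR. *Gins2* overlaps *Gse1* on the opposite strand.

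*Mcm5* (chr8:75109569-75128439, plus strand), whose promoter with overlapping E2F forms is printed above, was at 285 CPM in T41S, 311 in T41N and 302 in S45C, 397 in S45P and 493 and 416 in the S45F clones, and 459, 519.7 and 566 as the lowest, median and highest of the high clones. The medium clones lay between the low and most of the high ones, with a MES trend of 0.35 ± 0.05 (adjusted p = 1.1e-04). *Mcm3* (chr1:20802968-20820312, minus strand) was at 244 CPM in T41S, 291 in T41N and 299 in S45C, 403 in S45P and 477 and 435 in the S45F clones, and 343, 419 and 541 as the lowest, median and highest of the high clones, a trend of 0.27 ± 0.06 (adjusted p = 0.0043). *Mcm2* was at 382 CPM in T41S, 429.8 in T41N and 466 in S45C, 654 in S45P and 692 and 1016 in the S45F clones, and 591, 636 and 925 as the lowest, median and highest of the high clones, a trend of 0.31 ± 0.08 (adjusted p = 0.012). For both of these the medium clones were as high as the high ones, and the low clones stood apart.

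*Mcm10*, which activates the helicase, *Mcm6*, *Mcm7* and *Prim1*, the primase that starts new strands, rose as well, by 0.22, 0.19, 0.17 and 0.25 per 10000 MES units. *Prim1* was at 49.7 CPM in T41S, 42.4 in T41N and 46.8 in S45C, 85.2 in S45P and 74.7 and 67.0 in the S45F clones, and 73.0, 80.3 and 86.1 as the lowest, median and highest of the high clones. Each low clone was under all medium and high clones, and medium and high clones overlapped. *Cdt1* and *Slbp* were higher in high than in low clones (0.39 ± 0.13, adjusted p = 0.023, and 0.62 ± 0.23, adjusted p = 0.045) but their MES trends did not pass (0.09 and 0.16). The values of *Slbp* rest on few counts, with 14.1 CPM from 7 counts in T41N.

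Of the other S phase members, *Rrm1* was lower in high clones, with -0.49 ± 0.16 (adjusted p = 0.026), and was at 142 CPM in T41S, 147 in T41N and 152 in S45C, 150.4 in S45P and 120.5 and 131 in the S45F clones, and 73.5, 101 and 139 as the lowest, median and highest of the high clones. All 9 high clones were below all 3 low ones for *Rrm1* alone among the members. The share of all genes with this order was not computed, so it is not read as particular to *Rrm1*. *Rrm2*, the other subunit of the same enzyme, had -0.29 ± 0.14 (adjusted p = 0.11), *Cdc6* -0.29 ± 0.22 (adjusted p = 0.34) and *Pcna* -0.10 ± 0.11 (adjusted p = 0.55). *Pcna* was at 489.7 CPM in T41S, 649.7 in T41N and 671 in S45C, 632 in S45P and 569 and 622 in the S45F clones, and 460.02, 560.1 and 645 as the lowest, median and highest of the high clones. *Mcm4*, the 1 helicase subunit of the MCM ring that did not pass, had 0.08 ± 0.13 (adjusted p = 0.68), and *Tyms*, *Rfc2*, *Cdc45*, *Fen1*, *Pola1* and *Ung* had -0.08 to 0.46 without passing.

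**Figure D5:**
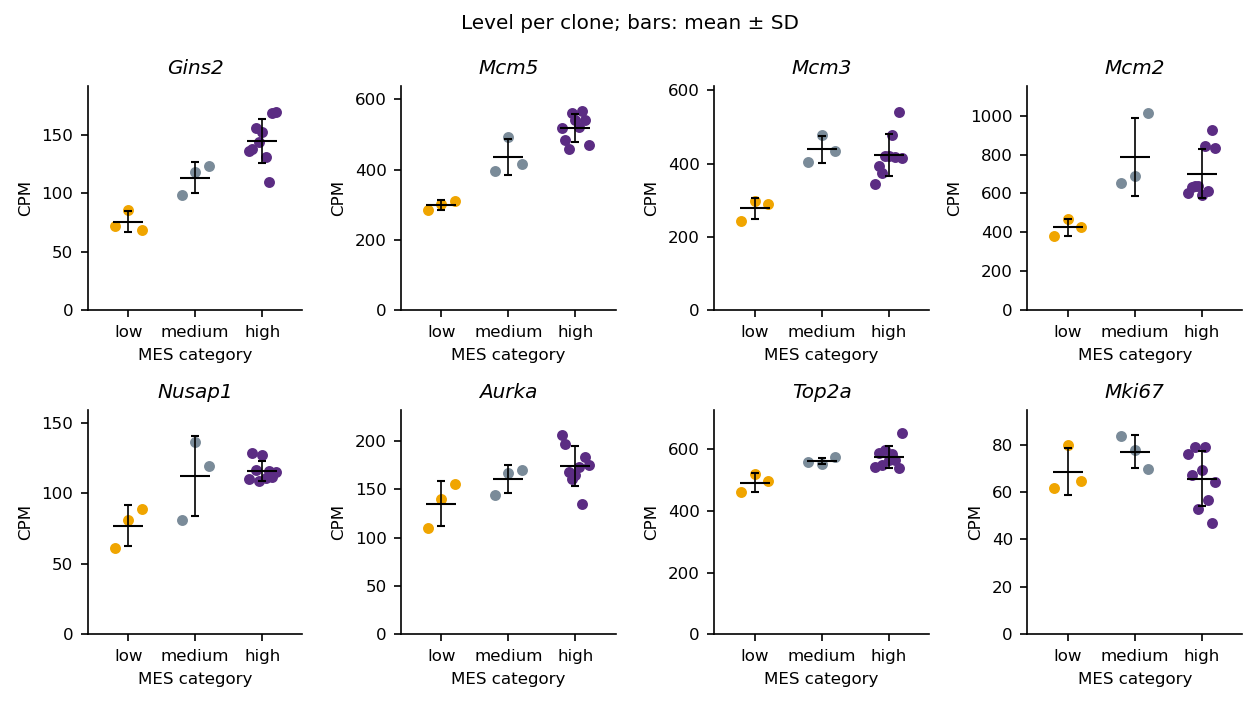
Level in CPM (y axes, from 0) in the 3 low, 3 medium and 9 high clones (x axes) for the helicase genes *Gins2*, *Mcm5*, *Mcm3* and *Mcm2* (top) and the G2/M members *Nusap1*, *Aurka*, *Top2a* and *Mki67* (bottom). Points are clones, 1 library each, and bars show the mean ± SD. The low clones are under all high ones for all 4 helicase genes, *Nusap1* and *Top2a*, and the categories of *Mki67* overlap.

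Of the G2/M members, *Nusap1* was at 61.0 CPM in T41S, 88.8 in T41N and 81.5 in S45C, 81.2 in S45P and 137 and 119 in the S45F clones, and 109, 115 and 129 as the lowest, median and highest of the high clones. Its MES trend was 0.26 ± 0.07 (adjusted p = 0.014), though the medium clone S45P lay among the low ones. *Aurka* (chr2:172356190-172370535, minus strand) was at 110.2 CPM in T41S, 155 in T41N and 140.3 in S45C, 144 in S45P and 167 and 171 in the S45F clones, and 135, 173 and 206 as the lowest, median and highest of the high clones, with 0.18 ± 0.06 (adjusted p = 0.041). *Top2a* was at 460.4 CPM in T41S, 496 in T41N and 520.5 in S45C, 558 in S45P and 554 and 575 in the S45F clones, and 540.1, 565 and 652 as the lowest, median and highest of the high clones, with 0.11 ± 0.04 (adjusted p = 0.049). The 3 low clones of *Top2a* were under all others, with means of 576 ± 35.1 CPM (SD, n = 9) in high and 492 ± 30.2 CPM (SD, n = 3) in low clones. *Ccnb2* was higher in high than low clones (0.37 ± 0.12, adjusted p = 0.025), with a MES trend of 0.14 that did not pass.

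The other 19 G2/M members ran from -0.27 for *Cdc20* to 0.17 for *Ccnb1* in high against low clones. *Cdc20* was at 282 CPM in T41S, 329 in T41N and 345 in S45C, 302 in S45P and 306 and 316 in the S45F clones, and 223, 249 and 309 as the lowest, median and highest of the high clones. *Kif11*, which had the second smallest p of the G2/M members in the dose trend, was at 78.5 CPM in T41S, 88.8 in T41N and 104 in S45C, 74.5 in S45P and 90.4 and 102 in the S45F clones, and 73.1, 90.9 and 103 as the lowest, median and highest of the high clones. Low and high clones of *Kif11* overlapped, at 0.02 ± 0.14 (adjusted p = 0.95). *Bub1* had 0.13 ± 0.17 (adjusted p = 0.61), *Ube2c* -0.11 ± 0.10 (adjusted p = 0.44) and *Kif23* -0.21 ± 0.14 (adjusted p = 0.26). *Mki67* was at 61.6 CPM in T41S, 64.6 in T41N and 80.0 in S45C, 83.9 in S45P and 77.8 and 69.7 in the S45F clones, and 47.1, 67.1 and 79.1 as the lowest, median and highest of the high clones, with a MES trend of -0.09 ± 0.07 (adjusted p = 0.42).

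In the genes listed apart, of 41 other replication genes 10 rose and 1 fell over MES, with a median of 0.13, led by *Rfc4*, a clamp loader subunit (0.27 ± 0.06, adjusted p = 0.0027), *Pold2* (0.33 ± 0.08, adjusted p = 0.0048) and *Lig1*, the ligase that joins Okazaki fragments (0.21 ± 0.05, adjusted p = 0.0057). *Pold2* was at 74.0 CPM in T41S, 68.6 in T41N and 78.4 in S45C, 130.4 in S45P and 134 and 117 in the S45F clones, and 107, 131 and 165 as the lowest, median and highest of the high clones. Of 40 other mitosis genes 7 rose and 2 fell (17.5% and 5.00%), with a median of 0.05. Of all genes tested 9.91% rose and 13.0% fell, and of the other replication genes 24.4% rose. Here the smallest p were those of *Cks1b*, a subunit of cyclin-dependent kinases, which fell (-0.28 ± 0.05, adjusted p = 4.4e-04), *Kif22*, a chromosome-arm kinesin (0.23 ± 0.06, adjusted p = 0.0097), and *Ncapd2*, a condensin subunit (0.24 ± 0.07, adjusted p = 0.016).

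Of 22 regulators, 4 rose and 4 fell over MES (18.2% each way), where 9.91% of all genes tested rose and 13.0% fell. *E2f1*, an activator of S phase genes, rose (0.36 ± 0.09, adjusted p = 0.0054). *Rb1*, which restrains E2F factors, fell (-0.50 ± 0.13, adjusted p = 0.0069), as did *E2f8*, a repressor of the E2F family (-0.47 ± 0.13, adjusted p = 0.01). The values of *Rb1* rest on few counts. It was at 21.5 CPM in T41S, 16.1 in T41N and 19.6 in S45C, and at 4.27 to 14.5 CPM in the high clones. *E2f1* was at 26.5 CPM in T41S, 52.5 in T41N and 31.7 in S45C, 66.6 in S45P and 66.5 and 65.1 in the S45F clones, and 57.3, 64.1 and 85.4 as the lowest, median and highest of the high clones. All 12 medium and high clones lay above the 3 low ones in *E2f1*. *E2f8* was at 31.6 CPM in T41S, 56.5 in T41N and 48.3 in S45C, 49.2 in S45P and 25.1 and 41.3 in the S45F clones, and 15.6, 20.8 and 34.2 as the lowest, median and highest of the high clones, and the medium clones overlapped with the low ones.

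Without the 3 low clones the MES trend of edgeR called 0 of the 44 members and 23 genes in all, with 2 S phase members and 1 G2/M member at an unadjusted p under 0.05. The median changes were then 0.05 for S phase and -0.10 for G2/M members. Within the 9 high clones it called 1 S phase member. Without T41S, MES trends passed for 2 S phase and 0 G2/M members, and high against low for 5 and 0. Without S45C, 5 S phase members and 1 G2/M member rose over MES, and without T41N, S37C or the T41I clone A6 1 G2/M member did. High against low gave 2 G2/M members higher without S45C or T41N, and *Rrm1* did not pass without any 1 of the 3 low clones. Calls among all genes moved too when 1 clone was left out. They were 1199 to 2388 over MES (2320 with all clones) and 1653 to 3264 in high against low (3110). The losses are thus not read as particular to the members. Beside these results, 5 of the 10 ES cell markers rose over MES (against 9.91% of all genes tested) and 1 fell (against 13.0%). Their summed level was 2294 to 3565 CPM in low, 4486 to 5593 in medium and 4779 to 6091 CPM in high clones. Of the 8 tested markers of differentiated cells 0 rose and 3 fell over MES, and the summed level of all 12 was 165 to 303, 96.0 to 146 and 75.1 to 282 CPM. The part of these cell markers in the result was not tested. Without T41S H8 and S37Y A5, the clones with the highest such sums, high against low gave 5 S phase and 0 G2/M members higher and the MES trend 3 and 0.

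Of the 15 members that fell in the dose trend 3 were among the 11 that rose over MES, namely *Nusap1*, *Top2a* and *Mcm7*. The share of all genes that did both was not computed, so this count is not read as particular to the members. The difference between both changes was tested in 1 fit of all 25 libraries, added after both fits were seen. The change at the top doses minus that between high and low clones was negative for 10 S phase and 11 G2/M members, with 9.73% of the 11375 genes tested called negative, and positive for 0. It was below 0 for 19 of 21 and 22 of 23, against a median of -0.02 over all genes. The members with the smallest p were *Nusap1* at -1.64 ± 0.22 (adjusted p = 2.3e-06), *Mcm5* at -1.07 ± 0.16 (adjusted p = 9.6e-06) and *Top2a* at -0.77 ± 0.14 (adjusted p = 1.0e-04). *Mcm2*, *Mcm3* and *Gins2* had -1.04 ± 0.22 (adjusted p = 8.9e-04), -0.90 ± 0.18 (adjusted p = 5.0e-04) and -1.03 ± 0.22 (adjusted p = 9.9e-04). For *Ccnb1*, *Ube2c* and *Kif11* the differences were -0.67 ± 0.17 (adjusted p = 0.0045), -0.43 ± 0.16 (adjusted p = 0.049) and -0.74 ± 0.22 (adjusted p = 0.016). Low clones are not untreated unedited cells, so each change has its own reference.

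By its median, the spread between clones of 1 mutation was smaller than that over all clones, with no test. For *Tyms*, *Mki67*, *Kif20a* and *Cenpa* it was the larger. The pairs are of medium or high mutations (S37F, S45F, T41A and T41I), so the low clones enter only the spread over all clones. Whether clones of 1 low mutation differ cannot be seen here. Over the 4 mutations with 2 clones, the median SD of log2(CPM + 1) within a mutation was 0.130 for S phase and 0.119 for G2/M members, against 0.282 and 0.191 over all 15 clones. Set beside the untreated unedited cells, with no test, since the clones differ from them in mitochondrial share, 11 of 15 clones were above both untreated libraries in the S phase sum and 0 of 15 in the G2/M sum. For *Aurkb*, *Bub1*, *Nusap1* and *Top2a* all 15 clones were below both untreated libraries, and for *Tyms* and *Kif20a* all 15 were above both. For *Kif11* 13 of 15 and for *Pcna* 14 of 15 were above both. The share of all genes with such counts was not computed, so the counts are not read as particular to the members.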

How the data were processed

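The authors deposited 1 table of UMI counts per gene for all 25 libraries, with no normalization. Per the methods and labels they trimmed reads with Cutadapt, handled UMIs with UMI-tools, removed ribosomal reads with SortMeRNA, aligned with RNA STAR to mm10, marked duplicates with Picard and counted with featureCounts 2.0.1. The annotation release and the use of strand are not given in the sources used here. Deduplicated 3′ counts do not scale with transcript length, and levels were compared within genes only.

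Of the 48440 gene identifiers, 48058 were found in GENCODE M21 (GRCm38), which gave symbols and positions. Promoters came from RefSeq (GRCm38.p6). edgeR 4.0.16 was run on the deposited counts (TMM, filterByExpr with a minimum count of 10, two-sided quasi-likelihood F-test, Benjamini-Hochberg over all genes tested, false discovery rate 0.05). Predictors were the dose in µM, a coefficient per dose, MES per 10000 units, or the 3 categories. Adjusted p in the text are of these fits unless DESeq2 1.42.0 is named. Replicate numbers were not taken to pair libraries, since correlations of replicate differences between doses were -0.133 to 0.116. Scripts were tested on simulated counts.

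The members and lists were chosen with earlier results of these data known. All members are named, with full values for the 3 of each group with the smallest p in the dose and MES trends and for *Mki67*, *Top2a*, *Pcna* and *Mcm2*, and 3 genes past the threshold per other list and trend. *Cdc20*, *Ube2c*, *Prim1*, *Rrm1* and further values were added after they were seen. Alternatives were RLE factors, DESeq2, no filter, thinned counts, blocks, ranks, summed clones, codon as a factor, chromosome medians and leaving out libraries.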

Additional observations from a re-analysis of the deposited data

Results flagged for a closer look

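In the high clones, *Cdt1*, which loads the helicase at origins, was at 218 CPM in the T41I clone B9, apart from the other 8 high clones at 175 to 197 CPM. The gap to the nearest clone was 0.502 of the whole range, above Dixon's critical value at 95% for 9 samples. Of the 44 members tested in this way 1 was set apart, and chance alone sets apart about 1 in 20 groups.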

How the results depend on the processing

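Over the alternatives the median log2 change of G2/M members was -0.51 to -0.12 (dose trend), -0.46 to -0.37 (top doses) and -0.32 to -0.27 (lowest dose), and that of S phase members -0.34 to -0.17, -0.29 to -0.19 and -0.13 to -0.06. In the clones it was 0.05 to 0.25 (MES trend) and 0.21 to 0.58 (high against low) for S phase members, while for G2/M members it changed sign, at -0.10 to 0.06 and -0.04 to 0.09. RLE factors, no filter, the rank of dose, no libraries at 10 µM and summed clones moved no count of calls beyond 1.5 times, and subtracting chromosome medians reversed no called member. The cause of the moves below was not tested, except that thinning and leaving out libraries use fewer counts or samples.

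With counts thinned to the smallest library the dose trend called 259 of 1256 genes, with 1 S phase and 4 G2/M members, the top doses 440, 0 and 6, the lowest dose 47 and 0 G2/M members, the MES trend 1464 and 0 G2/M members, and high against low 1866 genes. DESeq2 called 608 of 1687 genes at the top doses, with 1 S phase and 7 G2/M members, and 86 at the lowest dose with 1 G2/M member. With a block for the mitochondrial share 5 S phase members fell in the dose trend, 8 at the top doses, and at the lowest dose 545 genes were called with 1 S phase and 6 G2/M members. In the 6 libraries of higher share 7 S phase members fell at the top doses. Without the untreated libraries the dose trend called 121 genes and 0 of either group, and *Ube2c* reversed to 0.084 with no call.

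The MES trend called 23 genes without low clones (0 members) and 207 in the 9 high clones (1 S phase and 0 G2/M members), where *Prim1*, *Aurka* and *Nusap1* reversed to -0.169, -0.0625 and -0.0521 with no call. Without T41S H8 and S37Y A5 it called 1167 genes with 3 and 0 members, and high against low 1613 with 5 and 0 higher and 0 S phase members lower. Without T41N and S45C it called 1386 genes with 2 and 0, and high against low 0 S phase members lower. Rank of MES gave 0 G2/M members. Codon as a factor gave 2 G2/M members higher and 0 S phase members lower.

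With the replicate block, the MES trend gave 1 S phase member falling and 1 G2/M member rising, and high against low 2 S phase members lower. It moved no other count beyond 1.5 times, and the numbers do not pair libraries.

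Leaving out each library in turn gave 527 to 1325 genes in the dose trend, 1 to 4 S phase and 6 to 13 G2/M members. The top doses gave 681 to 1801 genes, 1 to 6 and 9 to 14 members. The lowest dose gave 71 to 273 genes and 0 to 3 G2/M members. The MES trend gave 1199 to 2388 genes, 2 to 9 S phase members rising, 0 to 4 G2/M members rising and 0 to 1 falling. High against low gave 1653 to 3264 genes, 5 to 11 S phase members higher, 0 to 1 lower and 0 to 4 G2/M members higher. Depth limits genes of few counts, such as *Slbp* and *Cdc6*, and an arm left with 1 library is assumed to vary like the other groups.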
